A study of Mus musculus with 16 samples.

Results

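The interferon-induced genes described here are 40 genes chosen by name, without use of any measured value. They are genes whose transcription interferons are known to raise, from the signal transducers Stat2 and Irf9 to antiviral effectors such as Isg15, Ifit1 and Bst2. Of the 40 symbols, 39 were found among 31055 features and held UMIs (unique molecular identifiers, 1 per captured transcript molecule), and Mx2 was the symbol without a row. Their levels were followed in 4 classes of cells from the thoracic aorta of mice with or without Smad3 in vascular smooth muscle cells (VSMCs).

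Single cells came from the aortic root to the arch of male 129S6/SvEv mice, sorted as live nucleated cells and sequenced by 3′ droplet RNA-seq, with 1 library per mouse. All mice carried the tamoxifen-inducible Cre recombinase Myh11-CreER, which is driven by a smooth muscle promoter on the Y chromosome, and all received tamoxifen at 6 weeks of age, so the controls share Cre and drug. Smad3+/+ mice have 2 intact alleles of Smad3, a signal transducer of TGF-β, and Smad3SmKO mice have alleles that Cre deletes in VSMCs. A Myh11-driven EGFP-L10a tracer was also carried by both 10-week Smad3+/+ mice and neither 10-week Smad3SmKO mouse, and at 18 weeks by all 5 mice whose tissue was digested for 60 min and none of the 7 digested for 30 min. Genotype and tracer therefore cannot be told apart at 10 weeks, nor digestion and tracer at 18 weeks, whereas within each 18-week batch the tracer was the same in both genotypes. The 16 libraries comprised 2 Smad3+/+ and 2 Smad3SmKO mice at 10 weeks after deletion, and 5 Smad3+/+ and 7 Smad3SmKO mice at 18 weeks. Tissue was digested for 60 min in all 10-week libraries, and for 30 min in 7 and 60 min in 5 of the 18-week libraries. The Cre driver is a smooth muscle promoter, so deletion was directed to VSMCs and the other classes were neighbours of the targeted cells.

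Libraries held 12539539 to 52843031 UMIs, and 50858 of 66349 barcodes passed limits on genes, UMIs and mitochondrial share. VSMCs (8648 cells) held at least 5 UMIs of Myh11 and more Myh11 than Dcn, fibroblasts (33954 cells) the reverse, endothelium (1226 cells) at least 2 of Pecam1 and Cdh5, and leukocytes (2946 cells) at least 2 of Ptprc and Tyrobp. Cells that met more than 1 class (2442) or none (1642) were left out. All 6, 6, 7 and 6 markers checked were highest in their own class. The summed leukocyte markers were 7449 counts per 1000000 (CPM) in leukocytes against 4.81 in VSMCs, 7.60 in fibroblasts and 9.99 in endothelium. These lists include the genes of the class rule, and cells that met more than 1 class were left out. Their order was therefore partly fixed in advance. Smad3 itself was not lower in VSMCs of Smad3SmKO libraries. It was at 4.75 and 5.33 CPM in the 10-week Smad3+/+ libraries and at 5.24 and 7.92 CPM in Smad3SmKO, and at 18 weeks the lowest, median and highest values were 1.97, 7.69 and 9.54 CPM in Smad3+/+ and 4.35, 8.10 and 19.1 CPM in Smad3SmKO. Counts near the 3′ end may lie outside the deleted part and so check nothing, a separate feature for the intact allele held no UMI in any library, and groups are therefore named by their labels. A total of 315 kept barcodes occurred in more than 1 library, with at most 11 shared by any pair.

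Interferons are secreted proteins that signal viral infection and inflammation. Type I interferons (Ifnb1 and the Ifna family) bind the Ifnar1 and Ifnar2 receptor and activate a complex with Stat2 and Irf9 that recognises the interferon-stimulated response element (ISRE), whereas Ifng binds Ifngr1 and Ifngr2 and acts through gamma-activated sites (GAS). Many cells keep a low tonic level of these genes without infection, and endothelium and macrophages are known responders to interferon.

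Promoters of the genes were examined first because both motifs are the known entry points of the pathway. RefSeq promoters on GRCm38.p6, from 250 bases before to 50 after each start, were matched for 29 of the 39 genes. The ISRE core GAAANNGAAA, searched on both strands, was present in 18 of the 29 (62.1%) and in 3.99% of 27025 genes. The GAS core TTCNNNGAA, which has the same letters on either strand, was present in 8 of the 29 (27.6%) and in 9.55% of all genes. The windows below are 60 bases long and lie wholly upstream of the start, 5′ to 3′ on the gene's own strand, with the motif in capitals. TTTCNNTTTC is the ISRE core read on the opposite strand. They show Isg15 and Ifit1, genes of the common antiviral response, Ifit3 and its copy Ifit3b, Bst2 and Gbp7, which were highest in endothelium, Ifi205 and Ifi211, neighbours called highest in different classes, and Irf1, whose window is shown for its GAS core.
Isg15, chr4:156200856-156200915, minus strand: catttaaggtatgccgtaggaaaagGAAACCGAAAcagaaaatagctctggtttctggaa
Ifit1, chr19:34640760-34640819, plus strand: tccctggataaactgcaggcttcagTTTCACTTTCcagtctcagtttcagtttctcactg
Ifit3, chr19:34583348-34583407, plus strand: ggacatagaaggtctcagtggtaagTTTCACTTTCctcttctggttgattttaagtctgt
Ifit3b, chr19:34607744-34607803, plus strand: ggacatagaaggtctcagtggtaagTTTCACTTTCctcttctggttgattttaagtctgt
Bst2, chr8:71537562-71537621, minus strand: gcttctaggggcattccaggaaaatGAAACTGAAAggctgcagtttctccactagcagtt
Gbp7, chr3:142530258-142530317, plus strand: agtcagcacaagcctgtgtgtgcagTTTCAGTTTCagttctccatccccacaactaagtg
Ifi205, chr1:174031855-174031914, minus strand: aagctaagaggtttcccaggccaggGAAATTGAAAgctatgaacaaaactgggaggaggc
Ifi211, chr1:173913049-173913108, minus strand: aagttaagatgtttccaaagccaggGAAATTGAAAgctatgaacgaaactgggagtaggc
Irf1, chr11:53769898-53769957, plus strand: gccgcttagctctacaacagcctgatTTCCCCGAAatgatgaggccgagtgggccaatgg

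The first base in capitals lay at -72 in Isg15, -104 in Ifit1, -156 in Ifit3, -188 in Ifit3b, -124 in Bst2, -53 in Gbp7, -134 in Ifi205 and -37 in Ifi211 relative to the start, and the GAS core of Irf1 lay at -90. Further ISRE cores within these windows began at -78 and -66 in Isg15, -85 in Ifit1 and -130 in Bst2. The window of Bst2 also held a GAS core at -136. The windows of Ifit3 and Ifit3b were equal in all 60 bases, and those of Ifi205 and Ifi211 were equal in 54 of 60. By class of highest level (below), the ISRE core was found in 5 of 9 matched genes highest in leukocytes, 3 of 5 highest in endothelium, 2 of 2 highest in fibroblasts and 7 of 12 highest in none. A match of letters is a description of the window and no evidence that a factor was bound there. Because of their likeness, UMIs of Ifit3 and Ifit3b, of Ifi204, Ifi205 and Ifi211, of Oas1a, Oasl1 and Oasl2, of Gbp2, Gbp3 and Gbp7, and of Trim30a with its neighbours may be partly misassigned.

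As a sum, the 39 genes were lowest in VSMCs and highest in endothelium and leukocytes, while some single genes departed from that order. Levels are given as CPM, the UMIs of a gene per 1000000 UMIs of the class in a library, and since each transcript is counted once at its 3′ end they can be set side by side between genes. Replicates are single mice. Summed over the 39 genes, the level was 375 ± 151 CPM (SD, n = 16 libraries) in VSMCs, 1291 ± 280 CPM in fibroblasts, 3161 ± 580 CPM in endothelium (n = 15) and 2539 ± 723 CPM in leukocytes. The ranges were 219.8 to 845.8 CPM in VSMCs, 728 to 1784 CPM in fibroblasts, 2440 to 4234 CPM in endothelium and 1345 to 4201 CPM in leukocytes. VSMCs overlapped only with fibroblasts, fibroblasts and endothelium did not overlap, and leukocytes overlapped with both fibroblasts and endothelium. A Smad3SmKO library at 18 weeks, replicate 7, had 3 endothelial cells and was left out of that class, and its leukocytes were 10 cells.

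**Figure D1:**
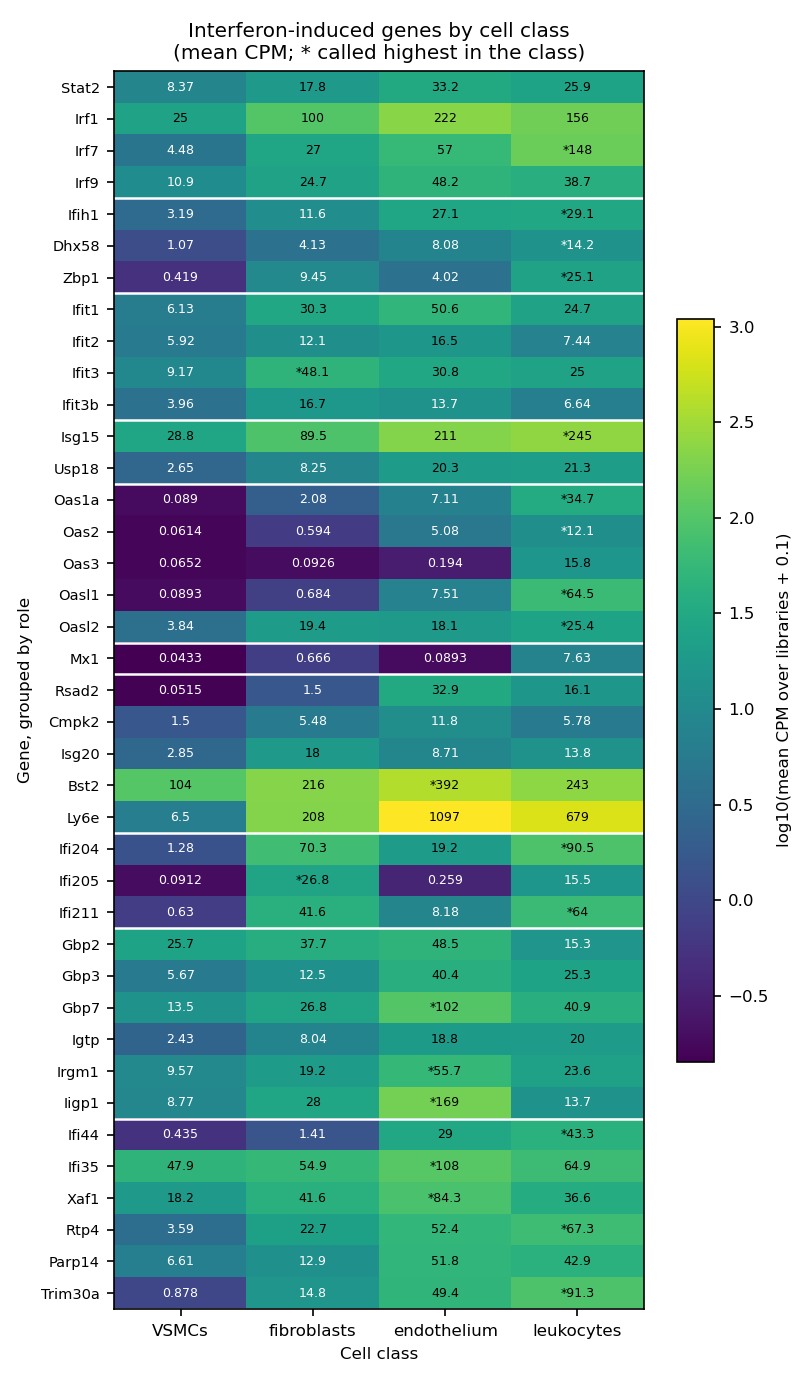
Heat map of the mean CPM of each of the 39 genes (rows, grouped by role) in the 4 cell classes (columns), coloured by log10 of the mean CPM plus 0.1 from dark (low) to yellow (high), with an asterisk where a gene was called highest. The VSMC column is the darkest for most genes, and Ly6e in endothelium, at 1097 CPM, is the brightest field.

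Classes were compared within libraries in 1 fit of summed counts (edgeR, quasi-likelihood F test with library as a term), and a gene was called highest in a class when it exceeded each of the other 3 with an adjusted p under 0.05. Of 37 genes tested, 0 were called highest in VSMCs (14.2% of 11149 genes tested), 2 in fibroblasts (11.2%), 6 in endothelium (9.13%) and 14 in leukocytes (23.8%), and 15 in no class. In all 37 the fitted level in VSMCs was below that in fibroblasts, so none could meet the rule in VSMCs at any p. DESeq2 was not run for the classes. Oas3 and Mx1 were too low for the fit. In the opposite direction, 33 of the 37 were called lowest in VSMCs, against 15.6% of all genes tested, and the 4 others were Ifi205, Gbp2, Ifi35 and Ifit2. Of the 33, 30 stayed lowest in VSMCs under every alternative processing and with any library left out.

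Signal transducers and transcription factors were led by Irf1, a factor that interferon gamma and other cytokines induce directly. Irf1 was at 222 CPM in endothelium, 156 CPM in leukocytes, 100 CPM in fibroblasts, and 7.18 to 63.2 CPM over the libraries of VSMCs. Endothelium and leukocytes were not distinguished (the fitted log2 difference, leukocytes minus endothelium, was 0.31 with an adjusted p of 0.298, opposite in sign to the means), whereas each exceeded fibroblasts and VSMCs. Irf7, which amplifies type I interferon production, was highest in leukocytes at 148 CPM, 1.48 ± 0.19 above endothelium on the log2 scale (SE, adjusted p = 1.61e-09), and reached 57.0 CPM in endothelium, 27.0 CPM in fibroblasts and 4.48 CPM in VSMCs. Stat2 and Irf9, subunits of the ISRE-binding complex, were at 33.2 and 48.2 CPM in endothelium and 25.9 and 38.7 CPM in leukocytes, and in neither gene were these classes distinguished.

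The 3 sensors of foreign nucleic acid among the members were called highest in leukocytes. Of the sensors on the pathway lists, Ddx58 (RIG-I) and Tlr3 were called highest in endothelium instead, at 35.8 and 22.1 CPM against 16.9 and 11.1 CPM in leukocytes. Zbp1, a sensor of Z-form nucleic acid, was at 25.1 CPM in leukocytes, 9.45 CPM in fibroblasts, 4.02 CPM in endothelium and 0.419 CPM in VSMCs, and leukocytes exceeded fibroblasts by 1.71 ± 0.17 on the log2 scale. Dhx58 and Ifih1, relatives of Ddx58, were called highest in leukocytes too, at 14.2 and 29.1 CPM. Dhx58 exceeded the next class by 1.35 ± 0.27 and Ifih1 by 0.78 ± 0.24 on the log2 scale.

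The OAS genes, many of whose products make the second messenger that activates RNase L, were highest in leukocytes, and several were near 0 in VSMCs and fibroblasts. Oasl1 was at 64.5 CPM in leukocytes, 7.51 CPM in endothelium, 0.684 CPM in fibroblasts and 0.0893 CPM in VSMCs, a log2 difference to the next class of 3.63 ± 0.25 (adjusted p = 4.44e-18). Oas1a was 2.71 ± 0.31 and Oas2 1.87 ± 0.27 above endothelium on the log2 scale, and Oasl2 exceeded the next class by 0.54 ± 0.21. The Oasl2 call was kept under 2 of 7 other settings and in 6 of 16 fits with 1 library left out. Oas3 was at 15.8 CPM in leukocytes and at no more than 0.194 CPM in any other class. Mx1, a GTPase that blocks influenza viruses and that is not functional in many laboratory strains, was at 7.64 CPM in leukocytes and 0.0433 to 0.666 CPM in the others. Leukocyte markers were close to 0 outside leukocytes, as given above, in part by the class rule.

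The IFIT genes, whose products bind viral RNA, did not follow that order. Ifit3 was called highest in fibroblasts, at 48.1 CPM against 30.8 CPM in endothelium, 24.99 CPM in leukocytes and 9.17 CPM in VSMCs, a log2 difference of 0.65 ± 0.24 to leukocytes, the closest class in the fit. This call was lost when cells of more than 1 class were kept (0.37) or the class minimum was raised 2 times (0.56), and without Smad3SmKO replicate 4 or Smad3+/+ replicate 5 of 18 weeks. Its copy Ifit3b was at 16.7 CPM in fibroblasts and 13.7 CPM in endothelium and was called in no class. Ifit1 was at 50.7 CPM in endothelium, 30.3 CPM in fibroblasts, 24.7 CPM in leukocytes and 6.14 CPM in VSMCs, and Ifit2 lay between 5.92 and 16.5 CPM in all 4 classes. Neither was called highest in any class.

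Isg15, a ubiquitin-like modifier, was at 245 CPM in leukocytes, 211 CPM in endothelium, 89.5 CPM in fibroblasts and 28.8 CPM in VSMCs. Leukocytes exceeded endothelium by 0.56 ± 0.23 on the log2 scale (adjusted p = 0.0366). The Isg15 call was kept under 3 of 7 other settings and in 2 of 16 fits with 1 library left out. Usp18, which removes Isg15 and restrains the type I receptor, was at 21.3 and 20.3 CPM in leukocytes and endothelium, 8.25 CPM in fibroblasts and 2.65 CPM in VSMCs, and was called in no class.

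Ly6e and Bst2 had the highest levels of the members in endothelium. Bst2, which tethers budding virus particles, was at 392 CPM in endothelium, 243 CPM in leukocytes, 216 CPM in fibroblasts and 104.5 CPM in VSMCs, and was the highest of all members in VSMCs. Ly6e, a surface protein that restricts some viruses, was at 1097 CPM in endothelium, 679 CPM in leukocytes, 207.7 CPM in fibroblasts and 6.50 CPM in VSMCs. Endothelium was not called above leukocytes (log2 difference 0.31, adjusted p = 0.149). Rsad2, which makes a chain-terminating nucleotide, was at 32.9 CPM in endothelium, 16.1 CPM in leukocytes and 0.0515 CPM in VSMCs, and endothelium exceeded fibroblasts by 4.35 on the log2 scale.

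The interferon-inducible GTPases, which attack membranes around intracellular pathogens, were called highest in endothelium in 3 of 6 cases (Iigp1, Gbp7 and Irgm1) and in no class in the others (Gbp2, Gbp3 and Igtp). Iigp1 was at 169 CPM in endothelium, 28.01 CPM in fibroblasts, 13.7 CPM in leukocytes and 8.77 CPM in VSMCs, and endothelium exceeded fibroblasts by 2.35 ± 0.28 on the log2 scale (adjusted p = 1.21e-09). Gbp7 was at 102 CPM and Irgm1 at 55.7 CPM in endothelium, 0.79 ± 0.15 and 0.70 ± 0.17 above the next class. Igtp was at 20.02 CPM in leukocytes and 18.8 CPM in endothelium, and Gbp3 at 40.4 CPM in endothelium and 25.3 CPM in leukocytes. Gbp2 was spread more evenly, at 48.5 CPM in endothelium, 37.7 CPM in fibroblasts, 25.7 CPM in VSMCs and 15.3 CPM in leukocytes.

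The p200 genes, whose products bind DNA, were high in fibroblasts and leukocytes and low in endothelium. Ifi205 was highest in fibroblasts at 26.8 CPM against 15.5 CPM in leukocytes, 0.259 CPM in endothelium and 0.0912 CPM in VSMCs. Ifi211 and Ifi204 were highest in leukocytes at 64.0 and 90.5 CPM, with 41.6 and 70.3 CPM in fibroblasts. Ifi205 and Ifi211, whose windows shown above were near-identical, were called highest in different classes. Both were low in endothelium and VSMCs, and a link between windows and classes was not tested.

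Of the remaining members, Xaf1 and Ifi35 were called highest in endothelium at 84.4 and 108 CPM, and Trim30a, Ifi44 and Rtp4 in leukocytes at 91.3, 43.3 and 67.3 CPM. Trim30a exceeded the next class by 1.53 ± 0.19 on the log2 scale. Parp14 was at 51.8 CPM in endothelium and 42.9 CPM in leukocytes, and was called in no class. Isg20, an RNA exonuclease, was at 18.0 CPM in fibroblasts and 2.85 to 13.8 CPM in the other classes.

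The split between endothelium and leukocytes depended on how cells were classed and on scaling. With cells of more than 1 class kept, 1 gene was called highest in endothelium and 22 in leukocytes, and Gbp7, Bst2, Irgm1, Xaf1 and Ifi35 lost their call in endothelium. The TMM factors, which centre the bulk of genes, raised endothelial library sizes by 0.22 and lowered those of leukocytes by 0.24 on the log2 scale relative to fibroblasts. With library totals alone, 13 genes were called highest in endothelium and 8 in leukocytes, and 10 genes held their class under all 7 other settings and all 16 leave-outs. These were Ifi205 in fibroblasts, Iigp1 in endothelium, and Ifi211, Zbp1, Oasl1, Oas2, Oas1a, Trim30a, Irf7 and Dhx58 in leukocytes.

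The response was then followed in single cells, with 12 core type I genes (the 4 Ifit genes, Isg15, Usp18, Oasl1, Oasl2, Rsad2, Cmpk2, Rtp4 and Irf7) and each cell thinned to 2000 UMIs. At least 3 of the 12 were found in 37 of 8648 VSMCs (0.428%), 1144 of 33954 fibroblasts (3.37%), 108 of 1223 endothelial cells (8.83%) and 349 of 2946 leukocytes (11.8%). Without thinning the shares were 2.28%, 17.0%, 26.6% and 27.3%. No core UMI was found in 93.4% of VSMCs, 72.7% of fibroblasts, 53.9% of endothelial cells and 48.6% of leukocytes. Of the 37 VSMCs, 23 came from Smad3SmKO replicate 7 at 18 weeks. Of the 349 leukocytes, 138 came from Smad3SmKO replicate 5 at 18 weeks, which held 834 of the 2946. These shares pool unequal libraries. The means over libraries were 0.644% in VSMCs, 3.31% in fibroblasts, 8.80% in endothelium and 9.77% in leukocytes. At least 6 core genes were found in 2 VSMCs, 165 fibroblasts, 7 endothelial cells and 51 leukocytes. The part of free RNA from lysed cells in these shares was not tested.

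**Figure D2:**
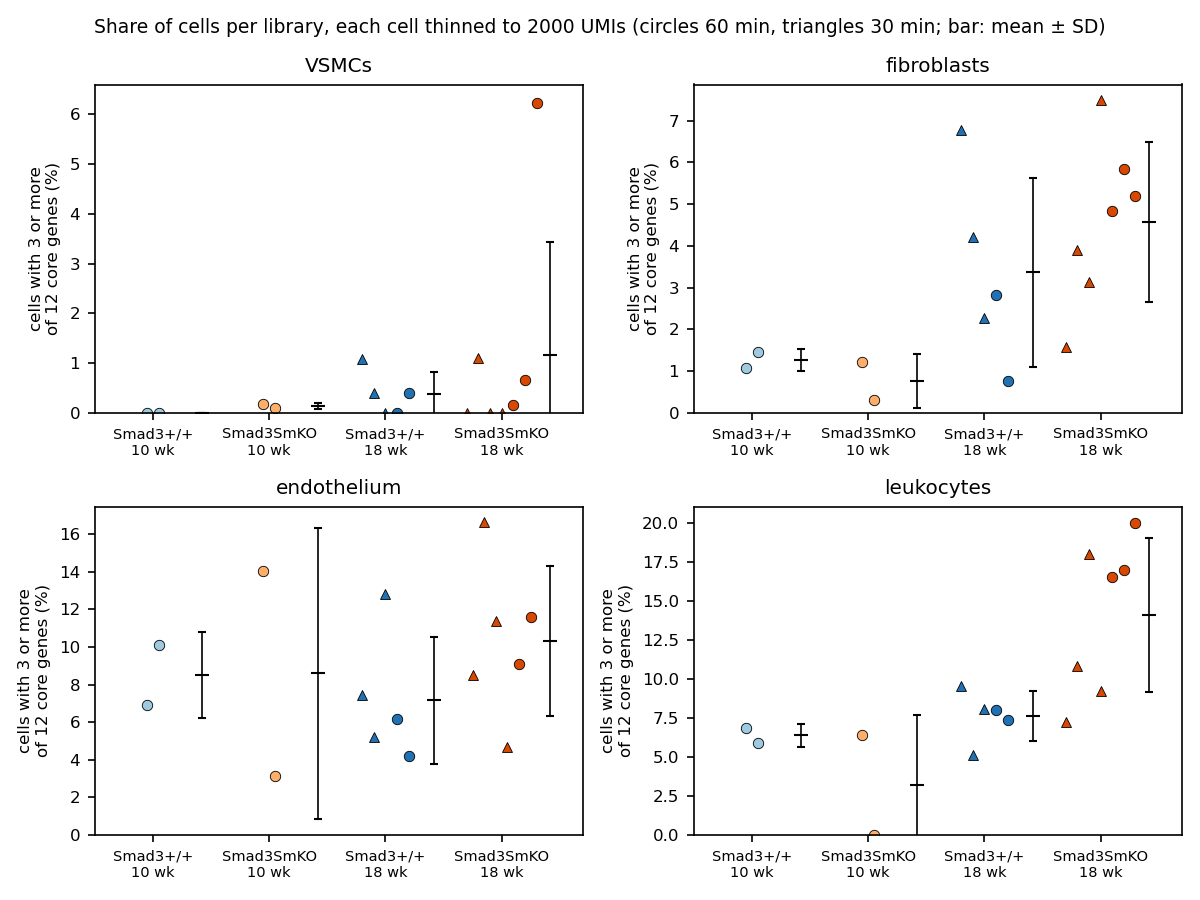
Share of cells (%) with 3 or more of 12 core genes in each library, by class and group, after thinning to 2000 UMIs. Circles are 60 min and triangles 30 min libraries, and bars give the group mean ± SD. In fibroblasts the 4 libraries at 10 weeks lie at or below 1.46%, and in VSMCs 1 library, at 6.23%, stands above all the others.

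The share ranged widely between mice of 1 group. In fibroblasts it was 1.08% and 1.46% in the 10-week Smad3+/+ libraries and 1.21% and 0.305% in Smad3SmKO, and at 18 weeks the lowest, median and highest were 0.770%, 2.84% and 6.77% in Smad3+/+ and 1.59%, 4.84% and 7.50% in Smad3SmKO. The 18-week groups overlapped over most of their range. In leukocytes it was 9.59%, 5.16%, 8.08%, 8.00% and 7.38% in the 18-week Smad3+/+ libraries, and 7.26%, 10.8%, 18.0%, 9.21%, 16.6%, 17.0% and 20.0% in Smad3SmKO, with 5 of the 7 Smad3SmKO libraries above the highest control. The highest of them, replicate 7, rests on 2 of 10 cells (95% Clopper-Pearson interval 2.52% to 55.6%, counting error only). Of these 5, replicates 5 and 7 were of batch 5, which held no control. Cells with neutrophil markers (defined below) were 50.8% and 52.3% of leukocytes in replicates 3 and 5. In the 18-week controls they were 9.59% to 33.3%. The part of batch and cell mixture was not tested. In VSMCs the mean over all libraries was 0.644%, and 0.272% without that replicate 7, whose 23 of 369 cells gave 6.23%. Its VSMCs were also the deepest, with a median of 21821 UMIs per cell before thinning. No p is given for these shares, since they are sums over genes chosen by name.

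Levels varied more between libraries in the core genes than in the other members. The libraries differ in time, genotype and digestion, and the variation includes counting error, which is larger for low genes. In leukocytes, for example, Cmpk2 held 112 UMIs and Ly6e 13692. These parts were not separated. Among members with at least 100 UMIs in a class, the median coefficient of variation over libraries was 101% for core genes and 51.5% for the others in VSMCs, 55.3% and 35.3% in fibroblasts, 56.1% and 35.7% in endothelium, and 94.2% and 54.4% in leukocytes. Without each gene's highest library, chosen after the data were seen, these medians were 74.5% and 43.1%, 46.7% and 31.3%, 52.2% and 33.3%, and 66.6% and 42.4%. The steadiest members were Ifi35 (23.2%) in VSMCs, Xaf1 (18.1%) in fibroblasts, Gbp2 (17.4%) in endothelium and Irf9 (29.1%) in leukocytes. The most variable were Ifit1 (185%), Ifi44 (183%), Irf1 (98.0%) and Rsad2 (176%), and 3 of these rested on 1 library. Without Smad3SmKO replicate 7 the value fell to 69.0% for Ifit1 in VSMCs and 78.0% for Ifi44 in fibroblasts, without Smad3SmKO replicate 2 to 68.9% for Rsad2 in leukocytes, and without replicate 6 to 78.0% for Irf1 in endothelium, all of 18 weeks. In fibroblasts of the 12 18-week libraries, core genes varied together, with a median Spearman correlation of 0.47 over 66 pairs of core genes, 0.17 over 312 pairs of a core and another member, and 0.21 over 325 pairs of other members. By their median correlation with the core genes, the most alike were Ifit3 (0.63), Ifit1 (0.62) and Oasl2 (0.60), and the least alike was Oas1a (-0.27). Points of these correlations share their libraries and depth, so they are descriptions.

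**Figure D3:**
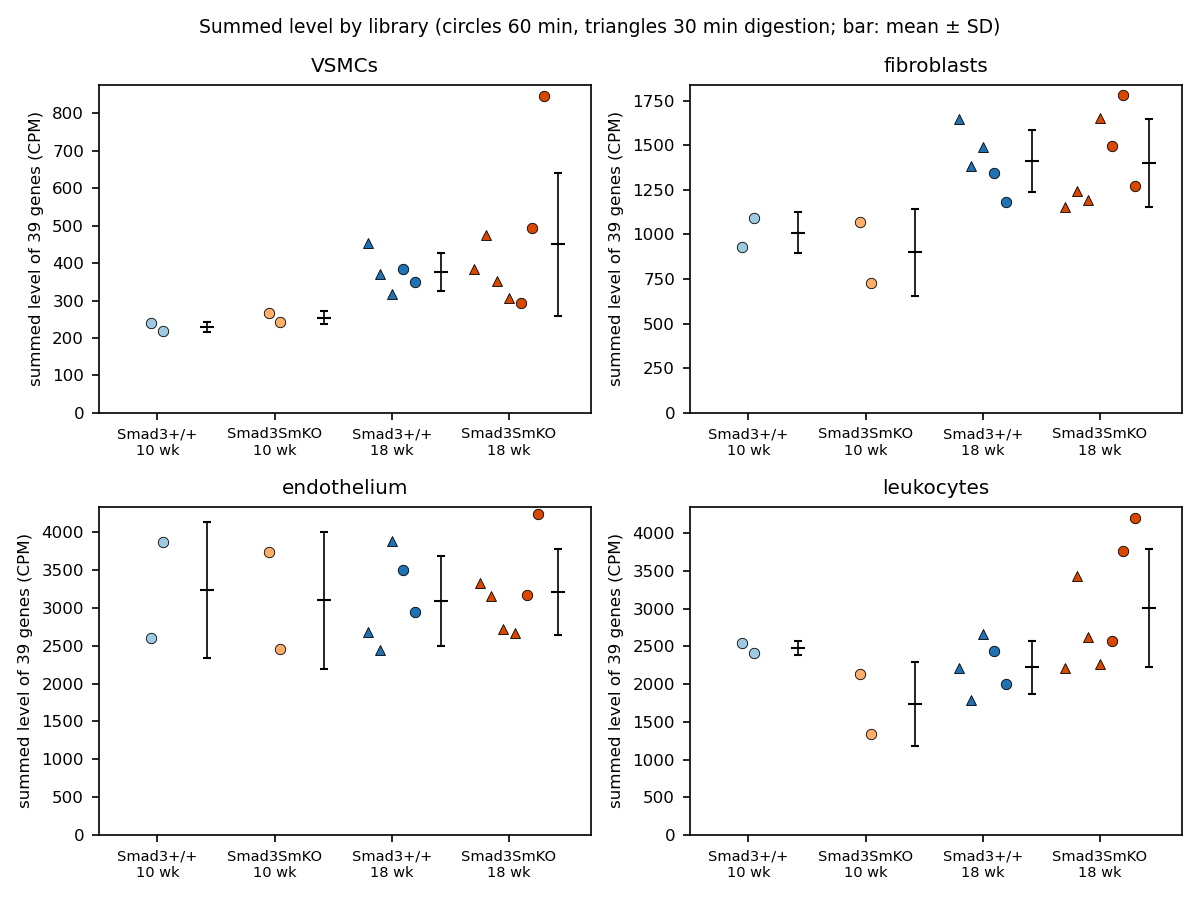
Summed level of the 39 genes (CPM) in each library, by class and group. Circles are 60 min and triangles 30 min libraries, and bars give the group mean ± SD. Genotypes overlap in every class at 18 weeks, and 1 Smad3SmKO library at 845.8 CPM stands above the others in VSMCs.

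The genotype comparison asked whether loss of Smad3 in VSMCs changed these genes in the VSMCs themselves or in their neighbours. No interferon-induced gene was called between genotypes in any class at either time, with the few exceptions under other settings named below. Summed over the 39 genes, 18-week levels in Smad3+/+ and Smad3SmKO libraries were 376 ± 50 and 450 ± 191 CPM in VSMCs, 1410 ± 174 and 1399 ± 248 CPM in fibroblasts, 3093 ± 595 and 3212 ± 566 CPM in endothelium, and 2221 ± 349 and 3010 ± 784 CPM in leukocytes (SD, n = 5 and 7, endothelium 5 and 6). The ranges of the genotypes overlapped in all 4 classes. In leukocytes the highest Smad3SmKO value, 4201 CPM, was that of replicate 7, which held 10 leukocytes and was of batch 5. In the 10-week batch the mean of Smad3SmKO minus that of Smad3+/+ was 25.2 CPM in VSMCs, -111 CPM in fibroblasts, -142 CPM in endothelium and -739 CPM in leukocytes, a difference in which genotype and tracer cannot be told apart.

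Within the 4 batches of 18-week libraries that held both genotypes the differences changed sign. They were -40.3, 67.1, -64.5 and 127 CPM in VSMCs, -432, -338, 270 and 522 CPM in fibroblasts, 252, -564, 222 and 1010 CPM in endothelium, and 812, -453, 477 and 1547 CPM in leukocytes, for batches 1, 2, 3 and 6. Batch 5 held Smad3SmKO libraries only (replicates 5 and 7), so with batch in the fit the genotype differences at 18 weeks rest on the 5 Smad3SmKO libraries of the other batches, while the ranges given are over all 7. The 10-week libraries were all of batch 4, so time cannot be told apart from batch and no test of time itself was made.

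In VSMCs, 28 of the 39 genes passed the filter on low counts, and at 18 weeks 0 of the 28 were called by edgeR (0.0342% of 11711 genes tested were) and 0 had an unadjusted p under 0.05 (4.8% of all genes). At 10 weeks 0 of 28 were called (0% of all genes), and again 0 had an unadjusted p under 0.05 (1.92%). DESeq2 called 0 at both times. The median log2 fold change of the 28 was 0.27 at 18 and 0.26 at 10 weeks, with 20 above 0 each time, against a median of -0.01 over all genes at both. Of all genes tested, 48.3% were above 0 at 18 weeks and 48.6% at 10 weeks. Here and in the other classes the genes share libraries and can move together, so such counts are descriptions. The largest differences at 18 weeks were in low genes. Isg20 was at 0.954, 1.85 and 4.36 CPM (lowest, median and highest) in Smad3+/+ and 0, 3.35 and 11.9 CPM in Smad3SmKO libraries, a log2 fold change of 1.31 ± 0.85. Dhx58 was at 0.318, 0.427 and 1.97 CPM and at 0, 1.34 and 3.98 CPM (1.02 ± 1.04). Rtp4 was at 0.996, 2.91 and 5.09 CPM and at 0, 3.59 and 19.7 CPM (0.83 ± 0.88), with the highest value in replicate 7. All 3 ranges overlapped. The highest values of Isg20 and Dhx58 were those of Smad3SmKO replicate 4, whose VSMCs were 20 cells with 251531 UMIs. Other libraries held up to 1675 VSMCs.

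Irf1 in VSMCs turned on 1 control. It was at 63.1, 17.8, 14.5, 19.9 and 16.2 CPM in the 5 Smad3+/+ libraries at 18 weeks, and at 7.18, 27.2 and 63.2 CPM (lowest, median and highest) in Smad3SmKO. Replicate 1 of Smad3+/+ was the high control, and the log2 fold change was 0.60 ± 0.50 with it. Without it, Irf1 was called (log2 fold change 1.75, edgeR adjusted p = 0.0297). That gene was singled out after its values were seen.

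In fibroblasts 38 of the 39 passed the filter, and 0 were called at 18 weeks (0% of 14343 genes) or at 10 weeks (0%), by edgeR or DESeq2. Unadjusted p-values were under 0.05 for 2 of 38 at 18 weeks (2.44% of all genes) and 0 at 10 weeks (0.885%). These were Oas1a and Parp14. Oas1a was at 0.686, 1.10, 1.33, 2.34 and 4.11 CPM in Smad3+/+ and at 1.03, 2.54 and 4.91 CPM (lowest, median and highest) in Smad3SmKO, a log2 fold change of 0.89 ± 0.28 that was above 0 in 4 of 4 batches (edgeR adjusted p = 0.9997). Parp14, an ADP-ribosyltransferase, was at 8.83 to 17.2 CPM in Smad3+/+ and 8.36 to 28.1 CPM in Smad3SmKO, a log2 fold change of 0.46 ± 0.14, above 0 in 4 of 4 batches. The median over the 38 was 0.08 at 18 weeks and -0.24 at 10 weeks, when 34 were below 0, against 0.01 and -0.01 over all genes. Of all genes tested, 46.9% were above 0 at 10 weeks. The largest differences were in low or variable genes. Ifit1 was at 9.61, 23.5 and 40.5 CPM in Smad3+/+ and 21.0, 34.8 and 92.4 CPM in Smad3SmKO at 18 weeks (0.50 ± 0.37). Mx1 had the largest difference, -1.23 ± 0.88, which turned on replicate 1 of Smad3+/+ at 4.59 CPM, since the 4 other controls were at 0.119 to 0.357 CPM and Smad3SmKO libraries at 0.116 to 1.83 CPM.

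**Figure D4:**
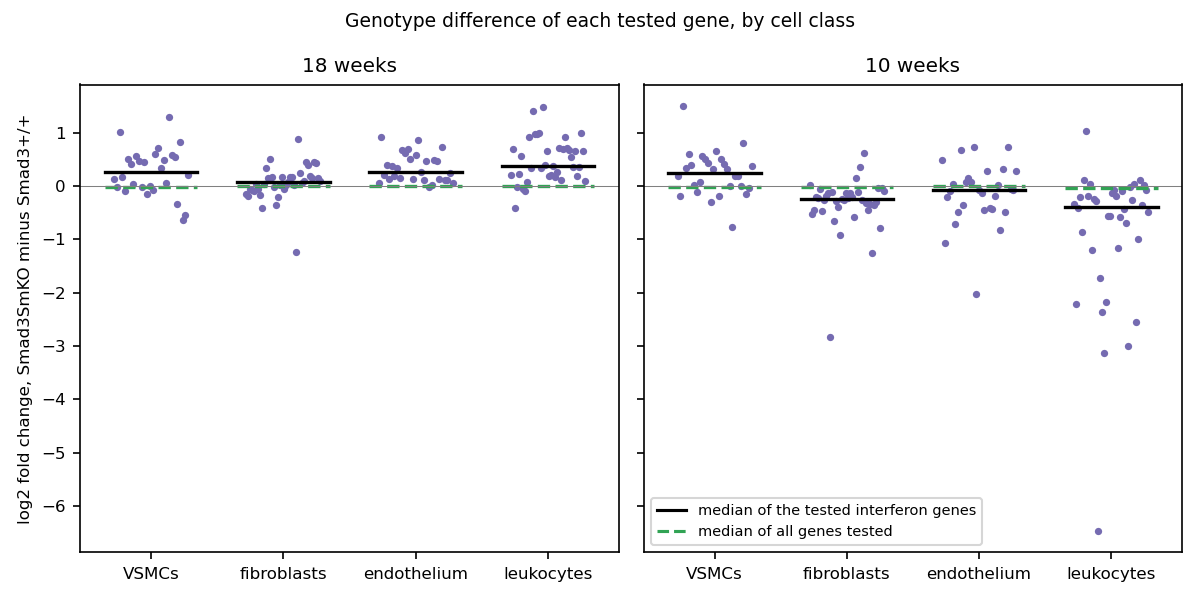
Log2 fold change, Smad3SmKO minus Smad3+/+, of each tested interferon-induced gene (points) by class at 10 and 18 weeks, with the median of these genes (solid line) and of all genes tested (dashed line). No point was called, and at 18 weeks the solid line lies above the dashed line in each class, from 0.08 in fibroblasts to 0.38 in leukocytes.

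In endothelium 29 of the 39 passed the filter, and 0 were called at 18 weeks (0% of 8094 genes) or 10 weeks (0%), by edgeR or DESeq2. At 18 weeks 2 of 29 had an unadjusted p under 0.05 (3.61% of all genes), and at 10 weeks 0 (3.3%). The median was 0.26 at 18 weeks with 28 of 29 above 0, and -0.08 at 10 weeks, against 0.01 over all genes both times. Of all genes tested, 51.0% were above 0 at 18 weeks. Irf1 was at 49.2, 63.0, 72.0, 299 and 505 CPM in the Smad3+/+ libraries and at 68.9, 112 and 844 CPM (lowest, median and highest) in Smad3SmKO, a log2 fold change of 0.86 ± 0.32, above 0 in 4 of 4 batches (edgeR adjusted p = 0.9998). The values above 200 CPM in both genotypes came from libraries digested for 60 min. Rtp4 was at 23.7 to 66.0 CPM in Smad3+/+ and 37.5 to 86.7 CPM in Smad3SmKO (0.74 ± 0.34, above 0 in 3 of 4 batches). Cmpk2, a mitochondrial nucleotide kinase, was at 0 to 30.0 CPM and 9.96 to 22.5 CPM (0.93 ± 0.62).

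In leukocytes 38 of the 39 passed the filter, and 0 were called at 18 weeks (0% of 8832 genes) or 10 weeks (0%), by edgeR or DESeq2. At 18 weeks 5 of 38 had an unadjusted p under 0.05, all higher in Smad3SmKO, where 1.57% of all genes had one, and at 10 weeks 2 of 38 did (3.12% of all genes). The median over the 38 was 0.38 at 18 weeks with 34 above 0, and -0.38 at 10 weeks with 32 below 0, against 0.01 and -0.04 over all genes. Above 0 were 51.0% of all genes tested at 18 weeks and 46.4% at 10 weeks. The 5 genes were Ifit1, Usp18, Ifi44, Xaf1 and Parp14, each above 0 in 3 of 4 batches and each with an edgeR adjusted p of 0.9999.

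Ifit1 in leukocytes was at 13.0, 16.9, 13.3, 13.3 and 14.2 CPM in Smad3+/+ and at 12.2, 122, 44.1, 32.9, 35.9, 30.99 and 10.2 CPM in Smad3SmKO, a log2 fold change of 1.41 ± 0.47. In all, 5 of the 7 Smad3SmKO libraries lay above all controls, and the highest was replicate 2. Usp18 was at 11.5, 13.3 and 19.0 CPM in Smad3+/+ and 7.46, 29.9 and 60.9 CPM in Smad3SmKO (1.00 ± 0.34). Here 6 of the 7 Smad3SmKO libraries lay above all controls. Both counts take in Smad3SmKO libraries of batch 5, which held no control. Ifi44 (0.92 ± 0.36), Xaf1 (0.65 ± 0.29) and Parp14 (0.56 ± 0.23) had overlapping groups. Iigp1 had the largest log2 fold change, 1.49 ± 0.78, but 1 control at 59.2 CPM lay above every Smad3SmKO library, the highest of which was at 29.7 CPM. With no filter on low counts Ifit1 and Iigp1 in leukocytes and Irf1 in endothelium were called (edgeR adjusted p = 0.00199, 0.0335 and 0.0383).

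At 10 weeks, with 2 libraries of each genotype, 2 genes had an unadjusted p under 0.05 in leukocytes, with the tracer in the Smad3+/+ mice only. Igtp was at 15.3 and 8.81 CPM in Smad3+/+ and 1.67 and 0 CPM in Smad3SmKO, and Dhx58 at 15.3 and 19.4 CPM against 5.02 and 0 CPM. The log2 fold changes were -3.14 ± 1.16 and -2.21 ± 0.91, and neither was called. The library at 0 was the same for both and held 50 leukocytes.

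The shares of leukocytes with neutrophil or macrophage markers differed between libraries. Cells with at least 10 UMIs of 5 neutrophil markers (S100a8, S100a9, Retnlg, Csf3r and Ly6g) made up 0 to 52.3% of leukocytes per library. Their share was 52.3% and 50.8% in replicates 5 and 3 of Smad3SmKO at 18 weeks. Cells with as many UMIs of macrophage markers made up 41.0% to 94.4%. In that replicate 3 they made up 69.7%, so some of its leukocytes met both rules. Such shares are therefore not those of separate cell types, and the cause of the overlap was not tested. Without cells that held at least 10 UMIs of S100a8 and S100a9, 0 of these genes were called between genotypes at 18 weeks by edgeR, and 14 genes highest in leukocytes became 11. In any class, fewer responding cells and less RNA per cell cannot be told apart in summed counts.

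No interferon-induced gene was called for a difference in genotype effect between times or classes. Between 18 and 10 weeks 0 of 28 were called in VSMCs (0.00854% of all genes) with 0 at an unadjusted p under 0.05 (2.58%), and 0 of 38 in fibroblasts (0%) with 1 (Parp14, log2 difference 0.78 ± 0.28) at an unadjusted p under 0.05 (0.878%). The effect at 10 weeks rests on 4 libraries and on mice that also differed in the tracer. Between classes at 18 weeks 0 of 39 were called (0% of 12248 genes), with 0 at an unadjusted p under 0.05 (3.67%). DESeq2 called 0 for the differences between times. So the counts of 5 in leukocytes and 0 in VSMCs do not show that the classes differ.

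Digestion time was the comparison with calls. Libraries of 18 weeks digested for 60 min (5, of 2 Smad3+/+ and 3 Smad3SmKO) were compared with those digested for 30 min (7, of 3 and 4), with genotype as a term. Each batch had 1 digestion time, and the tracer was in all 60 min and no 30 min libraries, so digestion, batch and tracer cannot be told apart. Called were 1 of 22 genes tested in VSMCs (3.32% of all genes tested), 2 of 37 in fibroblasts (1.64%), 4 of 26 in endothelium (1.81%) and 3 of 36 in leukocytes (3.98%). All 10 calls were higher after 60 min. The direction of calls over all genes was not compared. Uncalled genes also went the other way. In fibroblasts 19 of the 37 were below 0, while 49.9% of all genes tested were above 0. Of 6 members with an unadjusted p under 0.05 (edgeR), 4 were above 0. Ifih1 and Gbp7 in fibroblasts were lower after 60 min without overlap. Ifih1 was at 12.62 to 17.88 CPM after 30 min and 7.725 to 11.94 CPM after 60 min, and Gbp7 at 28.83 to 39.75 CPM and 17.91 to 28.03 CPM. The median over the tested genes was near that of all genes in VSMCs (0.03 and -0.01) and fibroblasts (-0.01 and 0.00), and 0.09 against -0.05 in endothelium and 0.12 against -0.03 in leukocytes.

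In endothelium Irf1 was at 49.2, 72.0 and 116 CPM (lowest, median and highest of 7) after 30 min and 278, 402 and 844 CPM (of 4) after 60 min, a log2 fold change of 2.83 ± 0.30 (edgeR adjusted p = 0.000477). The groups did not overlap. In the 10-week libraries, all digested for 60 min, it was at 98.9, 344, 282 and 133 CPM. Iigp1 did not overlap either, at 44.2, 83.0 and 124 CPM against 152, 208.4 and 268 CPM (1.45 ± 0.28, edgeR adjusted p = 0.0180). Igtp (1.05 ± 0.24, adjusted p = 0.0436) and Irgm1 (0.91 ± 0.21, adjusted p = 0.0484), GTPases of the same family, were also higher after 60 min, with overlapping ranges. Socs1, a feedback inhibitor of the pathway and no member, moved with them, from 9.12, 15.0 and 41.2 CPM to 86.4, 114.5 and 137 CPM (2.61 ± 0.30, adjusted p = 0.000896).

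**Figure D5:**
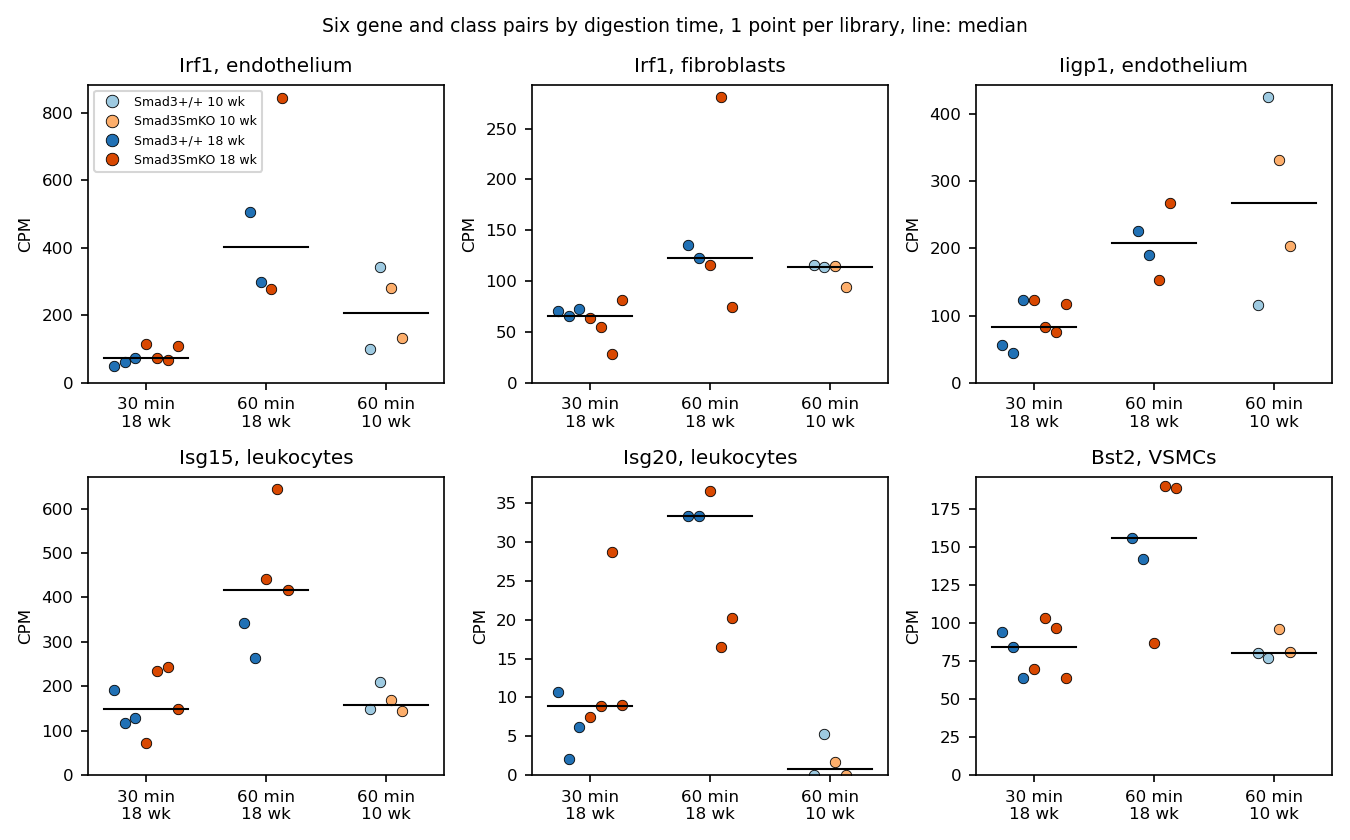
CPM of 6 pairs of a gene and a class, 1 point per library, for 18-week libraries digested for 30 or 60 min and 10-week libraries digested for 60 min, with lines at the medians. Irf1 and Iigp1 in endothelium and Isg15 in leukocytes do not overlap between digestion times at 18 weeks.

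In leukocytes Isg15 was at 71.9, 150 and 243 CPM after 30 min and 264, 416 and 643 CPM after 60 min (1.56 ± 0.29, adjusted p = 0.00800), again without overlap. In the 10-week libraries it was at 148, 210, 169 and 145 CPM, within the range of the 30 min libraries although all were digested for 60 min. Isg20 rose from 2.11, 8.85 and 28.7 CPM to 16.6, 33.3 and 36.6 CPM (1.77 ± 0.41, adjusted p = 0.0278), and was at 0 to 5.28 CPM at 10 weeks. Ifih1 was 1.14 ± 0.30 higher (adjusted p = 0.0490). Ifi205, which was not called, did not overlap either, at 0 to 14.75 CPM after 30 min and 14.76 to 40.59 CPM after 60 min. The share of all genes without overlap was not counted in any class.

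In VSMCs Bst2 was at 63.6, 83.9 and 103.5 CPM after 30 min and 86.5, 156 and 190 CPM after 60 min (0.96 ± 0.20, adjusted p = 0.0148), with the lowest 60 min library inside the 30 min range. At 10 weeks it was at 77.0 to 95.9 CPM. In fibroblasts Irf1 was at 27.8, 66.0 and 81.2 CPM after 30 min and 74.6, 122 and 281 CPM after 60 min (1.47 ± 0.32, adjusted p = 0.0420), and Oas1a at 0.686, 1.15 and 2.91 CPM and 2.17, 3.45 and 4.91 CPM (1.48 ± 0.33, adjusted p = 0.0478). Both fibroblast calls were lost when any of 8 libraries was left out. Irf1 in endothelium, Isg15 in leukocytes and Bst2 in VSMCs were called in every alternative and with any library left out.

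Immediate early genes, known to be induced by enzymatic dissociation, differed along with some of these calls. The sum of 10 immediate early and heat shock genes in endothelium was 4987, 6342 and 8272 CPM after 30 min and 9410, 14130 and 17773 CPM after 60 min, without overlap. In leukocytes it was 9360, 11076 and 14340 CPM after 30 min and 6346, 9161 and 11486 CPM after 60 min, and in VSMCs 2356, 6846 and 10137 CPM and 3534, 4691 and 7126 CPM, with a lower median after 60 min in both. In fibroblasts it was 5446, 7541 and 9556 CPM and 5148, 9795 and 12800 CPM, with a higher median after 60 min. Summed neutrophil markers in leukocytes were 2702 to 93302 CPM and 6434 to 62339 CPM. Their part in the result was not tested.

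The other genes of the pathway, 42 on 5 lists, were measured beside the members. Ligands were nearly absent. Ifnb1 was the highest, with 135 UMIs in leukocytes (mean 4.66 CPM), 0 in VSMCs and endothelium and 3 in fibroblasts. It was at 0 in 9 of 16 leukocyte libraries and highest in Smad3SmKO replicates 2 and 6 at 18 weeks, at 35.9 and 22.1 CPM, against at most 3.83 CPM in the 18-week controls (log2 fold change 3.94 ± 1.17, edgeR adjusted p = 0.9999). Ifng was at 0.327 CPM in leukocytes, and Ifna1, Ifna2, Ifna5, Ifne, Ifnl2 and Ifnl3 held no UMI in any class.

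Receptors were present in every class. Ifnar2 was at 169 CPM in fibroblasts, 165 CPM in leukocytes, 148 CPM in endothelium and 57.5 CPM in VSMCs, and Ifngr1 at 263 CPM in leukocytes, 242 CPM in endothelium, 124 CPM in fibroblasts and 48.2 CPM in VSMCs. Ifnlr1, the receptor for interferon lambda, was at 1.48 CPM or less. Irf5 and Irf8, factors of the myeloid lineage, were at 122 and 134 CPM in leukocytes, as was the phosphatase Ptpn6 at 163.5 CPM. The inhibitor Socs3 was at 373 CPM in endothelium, 295 CPM in leukocytes, 237 CPM in fibroblasts and 92.3 CPM in VSMCs.

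Between genotypes, 0 of 25, 28, 22 and 31 pathway genes tested in VSMCs, fibroblasts, endothelium and leukocytes were called at either time. Between digestion times, those called higher after 60 min were 1 of 21 in VSMCs (Il10rb, 0.63 ± 0.16; 3.32% of all genes were called in either direction), 0 of 28 in fibroblasts (1.64%), 2 of 22 in endothelium (1.81%; Socs1 and the adaptor Myd88, 1.37 ± 0.26) and 3 of 29 in leukocytes (3.98%; Socs1, 1.25 ± 0.25, Ptpn2, 1.04 ± 0.18, and Jak2, 1.204 ± 0.24). Irf8 was lower after 60 min in leukocytes (-0.74 ± 0.19). The ISRE core was found in 9 and the GAS core in 11 of 36 pathway promoters matched.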

How the data were processed

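Sorted aortic cells of 16 mice were profiled by 10x Genomics 3′ sequencing. The authors deposited UMI counts per gene and cell, made with Cell Ranger (version 6 in the submitters' processing notes, 4.0.0 in the matrix headers) on mm10 and analysed with Seurat 4. Cells with over 600 and under 6000 genes, over 2000 and under 50000 UMIs and under 25% mitochondrial UMIs were kept here. No doublet caller was run, and cells that met more than 1 class were left out. Counts were summed per library and class with at least 10 cells and tested with edgeR 4.0.16 (R 4.3.3, quasi-likelihood F test, TMM, filterByExpr, Benjamini-Hochberg over all genes tested, call at 0.05). Genotype fits had batch, a label of the libraries, as a term with 1 effect per time. Class fits had library as a term. Alternatives included DESeq2 1.42.0. Values and intervals were computed in Python 3.11.15 with scipy 1.17.1. The model fits were run on simulated counts with a fixed spread and no batch effect. Such a run does not show how many differences were missed in these libraries. Libraries are single mice, numbered in accession order. Comparisons at 18 weeks and between times share libraries and a common spread. The members, gene lists and tests were chosen with earlier results of these data known. Named were members called in a comparison, the 5 most abundant per class, the 3 with the largest 18-week difference up to 5 highest in a class and, of other pathway genes, those called and up to 3 per list with the highest level. Others were named after their values were seen. The count of genes lowest in VSMCs was added after values were seen. Positions and sequences are on GRCm38.p6, from RefSeq. Promoters of 10 members were not matched. The values of 1 pathway gene are not reported here.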

Additional observations from a re-analysis of the deposited data

Results flagged for a closer look

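In 8 of 40 groups of 5 to 7 libraries examined, the highest library stood apart from the others by Dixon's criterion at 95%. The nominal rate of 1 in 20 does not apply here. The single genes were the 3 per class with the largest 18-week genotype difference in these same libraries, and groups share libraries. Of the 8 groups, 3 lay in the VSMCs of Smad3SmKO replicate 7 at 18 weeks. Its summed level of the 39 genes was 845.8 CPM (the 6 others 292.3 to 494.7), its share of cells with 3 or more core genes 6.233% (0 to 1.105%), and Rtp4 19.69 CPM (0 to 6.614). In fibroblasts, Mx1 was at 4.585 CPM in Smad3+/+ replicate 1 (0.119 to 0.357 in the others), and Ifit1 at 92.43 CPM in Smad3SmKO replicate 4 (21.02 to 50.50). In endothelium, Irf1 was at 844.1 CPM in Smad3SmKO replicate 6 (68.93 to 278.1). In leukocytes, Iigp1 was at 59.22 CPM in Smad3+/+ replicate 3 (0.547 to 6.675), and Ifit1 at 122.2 CPM in Smad3SmKO replicate 2 (10.15 to 44.14). All are libraries of 18 weeks. The causes were not tested.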

How the results depend on the processing

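No paired analysis was possible because replicate numbers were given in accession order and pair no mice. Counts called between genotypes, and for differences between times and classes, were 0 under every setting run, except 1 in endothelium and 2 in leukocytes at 18 weeks with no filter on low counts, and 0 to 1 in VSMCs at 18 weeks with libraries left out (1 without Smad3+/+ replicate 1). For digestion in VSMCs the count was 2 with no filter and 1 to 2 with libraries left out (2 without Smad3SmKO replicate 7). In fibroblasts it was 1 with cells of more than 1 class kept, 4 with DESeq2 and 0 to 2 with libraries left out (0 without any Smad3+/+ library or Smad3SmKO replicate 1, 2 or 3). In endothelium it was 2 with those cells kept, 2 with 2 times the class minimum and 1 to 4 with libraries left out (1 without Smad3+/+ replicate 4 or Smad3SmKO replicate 6, 2 without Smad3+/+ replicate 1, 2 or 3 or Smad3SmKO replicate 2 or 4). In leukocytes it was 8 with no filter, 1 with 2 times the minimum, 5 with DESeq2 and 1 to 3 with libraries left out (1 without Smad3+/+ replicate 3, 4 or 5 or Smad3SmKO replicate 1). Genes highest in fibroblasts were 1 with those cells kept or 2 times the minimum and 1 to 2 with libraries left out. Those highest in endothelium were 13 with library totals, an alternative chosen after seeing the data, and 1 with those cells kept, and those highest in leukocytes 8 and 22. With those cells kept the log2 difference of Gbp7 between endothelium and the next class was -0.12. With libraries left out, Rtp4 in VSMCs ranged from -0.16 (without Smad3SmKO replicate 6) to 1.19, and Mx1 in fibroblasts from -2.24 to 0.70 (without Smad3+/+ replicate 1). The causes were not tested. Low counts limit Oas3, Mx1 and most OAS genes outside leukocytes.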
